A study of Macaca mulatta with 8 samples.

Results

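Fluorescence sorting for CD25high CD127low CD4 T cells, the usual surface gate for regulatory T cells (Tregs), gave cells that the authors' deposited annotation placed mainly in 2 classes, endoTreg and Tconv. These classes were compared within the same library, on day 3 and again on day 20. Members were all cells of either class in the CD25high CD127low libraries, 5632 of the 25397 cells of the series. Day 3 had 1301 endoTreg and 2037 Tconv cells, and day 20 had 938 and 1356.

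The series measured adoptively transferred Tregs and other CD4 T cells of rhesus macaque blood by droplet-based single-cell RNA sequencing. Mononuclear cells were cryopreserved, all thawed on a single date, enriched magnetically for CD4 and sorted as CFSE-positive (a cell-tracking dye), CD25high CD127low, CD127-positive CD25-positive or CD127-positive CD25-negative cells. Each sort gave 1 library on each day, 8 in all, so the day comparison has no replicates, and the labels name neither the animals nor any treatment. The labels do not say how the classes were made, and RNA counts compared here may have entered them, so every ratio between them is given as a description and no p-value was computed.

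Tregs are CD4 T cells that restrain immune responses. Their lineage factor is FOXP3, and they carry much CD25, the alpha chain of the IL-2 receptor (gene IL2RA), and little CD127, the alpha chain of the IL-7 receptor (gene IL7R). Conventional CD4 T cells gain CD25 for a time when activated, so a gate on these 2 proteins can hold both kinds of cell.

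The Tconv class was the larger class of the Treg gate on both days. It made up 60.9% of the day 3 library (95% exact binomial interval 59.2 to 62.5, 2037 of 3347 cells) and 57.9% of the day 20 library (55.8 to 59.9, 1356 of 2343 cells). The endoTreg class made up 38.9% (37.2 to 40.5) and 40.0% (38.0 to 42.1), and a few transTreg cells, 9 and 49, made up the rest. By UMIs (counted RNA molecules) in place of cells, Tconv held 58.8% and 57.5%. The endoTreg class was much rarer in the other surface sorts, at 9.22% and 6.17% of the CD127-positive CD25-positive libraries and 2.40% and 1.36% of the CD127-positive CD25-negative ones. All intervals in the text are 95% intervals that cover counting error only, since cells of 1 library are not replicates.

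**Figure D1:**
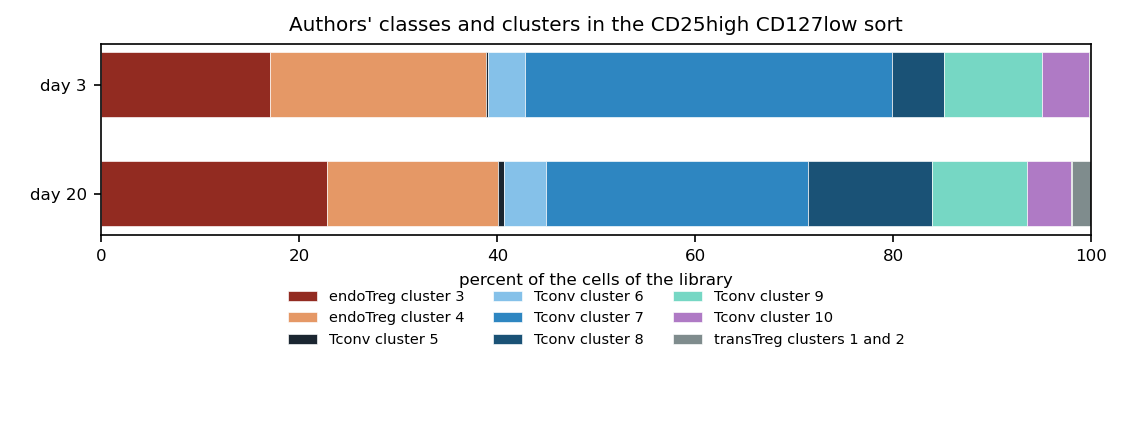
Percent of the cells of each CD25high CD127low library (horizontal axis) in each of the authors' classes and clusters, with day 3 above and day 20 below. The endoTreg clusters 3 and 4 fill 38.9% and 40.0% of the bars, and Tconv cluster 7 is the widest single segment on both days.

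The classes were of like depth. Median UMIs per cell were 3216 in endoTreg and 3032 in Tconv on day 3, and 2551 and 2749.5 on day 20, and summed counts ran from 2665517 to 6349222 UMIs per class and day. With every cell thinned to 1000 UMIs, endoTreg cells had a median of 430 and 458 detected genes on days 3 and 20, and Tconv cells 406 and 430. Ribosomal protein genes took a median of 39.4% and 37.1% of UMIs in endoTreg and 43.1% and 41.3% in Tconv. Cells with many UMIs or with UMIs of other cell types (doublet-like cells) made up 13.8% and 10.1% of endoTreg and 5.2% and 1.92% of Tconv. T cell genes were present in both classes, with CD3D at 1041 CPM (the class's summed UMIs scaled to a common total) or more, while CD4 RNA was close to the detection limit, at 4.98 and 3.46 CPM in endoTreg and Tconv on day 3 and 4.88 and 3.17 CPM on day 20. The 2 sorted libraries shared 9 cell barcodes, and 84 day 3 and 70 day 20 barcodes also occurred in another population.

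Of the sort's own marker genes, IL2RA (ENSMMUG00000015151) stood at 597 CPM (574 to 620) in endoTreg and 122 (114 to 131) in Tconv on day 3, and at 338 (316 to 361) and 121 (110 to 132) on day 20. IL7R (ENSMMUG00000001676) stood at 145 CPM (134 to 157) in endoTreg and 585 (566 to 604) in Tconv on day 3, and at 216 (198 to 234) and 638 (612 to 664) on day 20. The Tconv cells inside a gate set to low CD127 thus had the higher IL7R RNA on both days, and the lower IL2RA RNA. The log2 ratios of endoTreg over Tconv, taken on CPM plus a pseudocount of 10, were 2.20 and 1.41 for IL2RA and -1.94 and -1.52 for IL7R. Higher CPM in a class can come from more positive cells or from more RNA per cell, which summed counts alone do not tell apart.

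FOXP3 (ENSMMUG00000008624) stood at 160 CPM (149 to 172) in endoTreg and 17.5 (14.4 to 21.1) in Tconv on day 3, and at 140 (126 to 155) and 16.9 (13.0 to 21.6) on day 20. The endoTreg class, with 38.9% and 40.0% of the cells, held 86.2% of the library's FOXP3 UMIs on day 3 and 83.6% on day 20. It also held 77.0% and 64.6% of the IL2RA UMIs, 69.0% and 74.8% of those of CTLA4, an inhibitory receptor of Tregs, and 14.7% and 19.0% of those of IL7R. Of CD40LG, a ligand by which helper T cells activate B cells, endoTreg held 18.3% and 15.4%.

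FOXP3 was nonetheless detected in a part of the Tconv cells. At least 1 FOXP3 UMI was found in 34.2% and 26.7% of endoTreg cells (day 3, day 20) and in 4.61% and 4.13% of Tconv cells. In the Tconv class of the CD127-positive CD25-negative sort the shares were 0.101% and 0.0552%, at lower median depths of 2441 and 2185 UMIs. Those are other libraries with far fewer endoTreg cells, so they do not measure stray FOXP3 RNA in the Treg gate. The part of stray RNA in the Tconv shares was not tested. Thinned to 1000 UMIs, the shares were 14.4% and 15.4% in endoTreg and 1.62% and 1.55% in Tconv. Of all cells of the sort with a FOXP3 UMI, 17.4% (94 of 540) on day 3 and 17.8% (56 of 314) on day 20 were in the Tconv class. Among the FOXP3-positive Tconv cells, an IL2RA UMI was present in 55.3% (44.7 to 65.6) and 44.6% (31.3 to 58.5), against 24.8% and 23.5% of Tconv cells without FOXP3. An IL7R UMI was present in 41.5% and 44.6% of them, against 70.6% and 71.7%. These shares were not matched for depth. With cells thinned, 33 and 21 FOXP3-positive Tconv cells were left. An IL2RA UMI was then present in 21.2% (8.98 to 38.9) and 9.52% (1.17 to 30.4) of them (7 and 2 cells). Of the thinned Tconv cells without FOXP3, 10.2% and 10.1% had 1. The day 20 difference in IL2RA was thus not seen in thinned cells, and the day 3 interval also takes in the share without FOXP3. An IL7R UMI was present in 12.1% (3.40 to 28.2) and 28.6% (11.3 to 52.2), against 40.2% and 41.9%. The day 20 interval takes in the latter share.

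Beyond the markers, few genes separated the classes by 2-fold. A gene counted as measured with 50 CPM or more in either class on both days, which 1756 genes reached. Of these, 19 were higher in endoTreg by 2-fold or more on both days (1.08%) and 7 were lower by as much (0.399%). All 26 belong to the genes that the deposited table marks as used for ordering cells, as do 38.7% of the measured genes. The median log2 ratio over the measured genes was 0.16 on day 3 and 0.15 on day 20, and the ratios of 1505 genes had the same sign on both days. Scaling by TMM factors moved those medians to -0.01 and 0.03 and made no named gene change sign. The genes just inside the fold were HIST2H2AA4, at 1.09 and 1.13 (a histone gene with near-identical copies, so its counts are uncertain), and TCF7, at -1.35 and -1.05, and those just outside were RGS1, at 1.92 and 0.98, and CTSH, at 0.98 and 1.05.

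**Figure D2:**
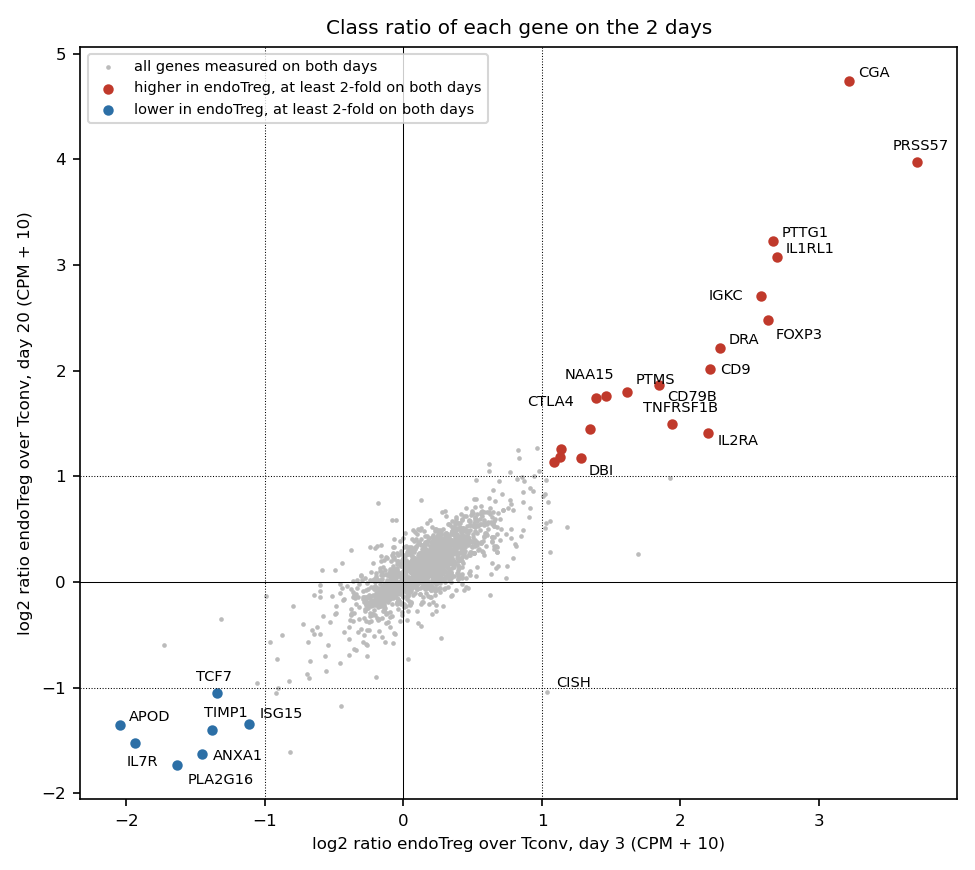
Log2 ratio of endoTreg over Tconv for each of the 1756 measured genes, day 3 on the horizontal and day 20 on the vertical axis, with dotted lines at 2-fold. The 19 genes higher in endoTreg reach up to CGA and PRSS57, the 7 lower genes lie at the bottom left, and CISH lies alone in the lower right corner.

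The widest ratios belonged to genes outside the classical Treg set. PRSS57, a serine protease gene, stood at 162 CPM in endoTreg and 3.15 in Tconv on day 3 and at 205 and 3.70 on day 20 (log2 ratios 3.71 and 3.97). CGA, which encodes the alpha subunit shared by the glycoprotein hormones, stood at 114 and 3.31 CPM on day 3 and at 377 and 4.49 on day 20 (3.22 and 4.74). IL1RL1, the receptor for the alarmin IL-33, stood at 80.4 and 3.94 CPM and at 141 and 7.93 (2.70 and 3.08). PTTG1, which encodes the mitotic regulator securin, stood at 243 and 29.8 CPM and at 371 and 30.7 (2.67 and 3.23). For all 4 genes the counting intervals of the classes were far apart on both days, which follows from their choice by wide ratios. The endoTreg level of each was higher on day 20 than on day 3, but the class was made up differently. The authors' cluster 3 held 570 of 1301 endoTreg cells on day 3 and 535 of 938 on day 20. Within cluster 3, PRSS57 stood at 353 CPM on both days, while CGA, IL1RL1 and PTTG1 were higher on day 20. With 1 library per day the difference between days was not tested. Of the UMIs in the sort, endoTreg held 97% and 97.3% for PRSS57 and 96.0% and 98.1% for CGA.

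TNFRSF1B, a receptor for tumour necrosis factor, stood at 214 CPM in endoTreg and 48.4 in Tconv on day 3 and at 150 and 46.8 on day 20. The tetraspanin CD9 stood at 171 and 29.1 CPM and at 176 and 36.2. CTLA4 stood at 83.4 and 25.7 CPM and at 88.2 and 19.3. DBI (an acyl-CoA binding protein), PTMS (parathymosin) and NAA15 (a subunit of an N-terminal acetyltransferase) had log2 ratios between 1.17 and 1.79 on the 2 days. The 19 also included TPM4, LGALS3 and 1 gene without a symbol. Without doublet-like cells the day 20 ratio of PTMS was 0.77, that of DBI was just short of 2-fold, and TPM4 and HIST2H2AA4 were not called either.

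Among the genes higher in endoTreg were also IGKC and CD79B, which are B cell genes, and DRA, an MHC class II gene. IGKC stood at 117 CPM in endoTreg and 11.2 in Tconv on day 3 and at 102 and 7.14 on day 20, CD79B at 68.9 and 12 and at 50.6 and 6.61, and DRA at 54.8 and 3.31 and at 59.7 and 5.02. The whole B cell marker list moved with the class: its 7 genes summed to 271 and 233 CPM in endoTreg and 42.1 and 31.2 in Tconv, and 107 and 44 endoTreg cells held at least 3 of these UMIs, against 12 and 1 Tconv cells. The defining marker MS4A1 was at 8.16 and 9.0 CPM in endoTreg and 0.158 and 0.529 in Tconv. The 10 cells with the most IGKC held 40.9% and 47.1% of the endoTreg counts. Without doublet-like cells, which that marker list helps to define, IGKC, CD79B and DRA were not among the called genes: their log2 ratios became 1.25, 1.36 and 1.68 on day 3 and 1.81, 1.28 and 1.42 on day 20, with levels under 50 CPM on at least 1 day. The part of B cell RNA in these 3 genes was not tested beyond this. Red cell genes summed to 200 CPM in endoTreg and 2510 in Tconv on day 3 and to 127 and 150 on day 20. The remaining lists of non-T markers were low: NK genes summed to at most 30.9 CPM, monocyte genes to at most 10.9, platelet genes to at most 2.04 and CD8 genes to at most 2.91, and the dendritic cell markers in the table were at 0 in both classes.

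The genes lower in endoTreg, which are those higher in the Tconv class, were fewer. ANXA1, a phospholipid-binding annexin, stood at 232 CPM in endoTreg and 652 in Tconv on day 3 and at 249 and 792 on day 20 (log2 ratios -1.45 and -1.63). PLA2G16, a phospholipase gene, stood at 122 and 401 CPM and at 114 and 400 (-1.64 and -1.73). TCF7, a transcription factor of naive and memory T cells, stood at 55.1 and 155 CPM and at 66.4 and 149, and its day 20 ratio of -1.05 was -0.93 without doublet-like cells. TIMP1, a metalloprotease inhibitor, had log2 ratios of -1.38 and -1.40, and APOD, a lipocalin, of -2.04 and -1.35. ISG15, an interferon-induced ubiquitin-like protein, stood at 90.2 and 207 CPM and at 81.8 and 223 (-1.12 and -1.34).

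**Figure D3:**
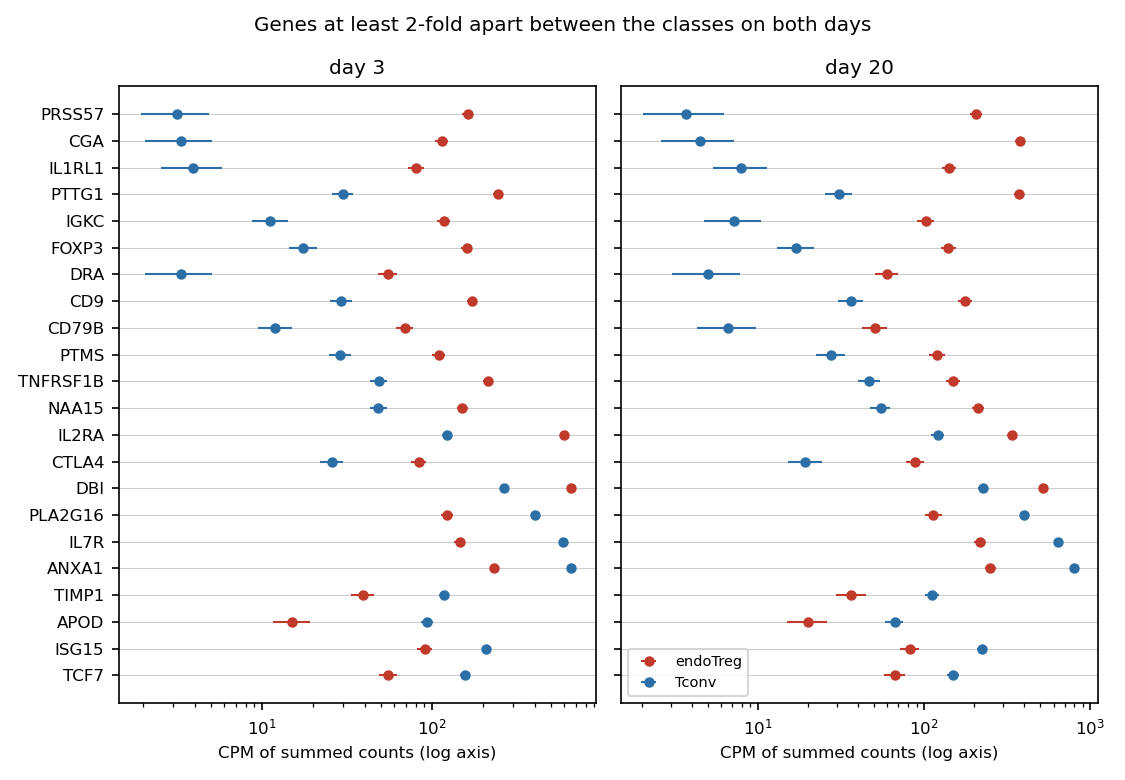
CPM of summed counts (log axis) of the 22 named genes in endoTreg (red) and Tconv (blue) on day 3 and day 20, with bars for 95% exact Poisson intervals of the counts. The intervals of the classes do not overlap for any of these genes on either day. That follows from choosing genes 2-fold apart in these same counts, so it adds no support.

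The day 3 Tconv class also held HBB, the beta globin gene, at 2327 CPM, against 38.7 in endoTreg and under 1 CPM in both classes on day 20. The 10 cells with the most HBB held 98.4% of those Tconv UMIs, and 99.4% lay in cluster 7. HBB was thus a feature of a few barcodes, although it was past 2-fold on day 3.

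Each class was a mixture of clusters, and the separating genes did not belong to all of them. The endoTreg class comprised clusters 3 (570 and 535 cells) and 4 (731 and 403 cells). The authors' finer names called 461 and 444 endoTreg cells effector and 798 and 412 naive endogenous Tregs. The Tconv class was led by cluster 7 (1239 and 620 cells), with smaller clusters 6, 8, 9 and 10 and 7 and 15 cells of cluster 5. Among the Tconv clusters 6 to 10, none reached the FOXP3 level of either endoTreg cluster on the same day. FOXP3 was at 226 and 198 CPM in cluster 3, 105 and 59.7 in cluster 4, and between 4.69 and 56.4 in the Tconv clusters. Its upper end was cluster 10 on day 3, at 56.4 CPM (37.7 to 80.9), and cluster 6 on day 20, at 56.2 (32.1 to 91.2), an interval that takes in the level of endoTreg cluster 4.

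Most of the 19 genes were genes of cluster 3. PRSS57 stood at 353 CPM in cluster 3 and at 1.67 in cluster 4 on day 3, and at 353 and 0.892 on day 20. CGA stood at 248 and 1.67 CPM and at 650 and 1.78, and cluster 3 held 99.2% and 99.8% of the class's CGA UMIs. IL1RL1 stood at 167 and 7.5 CPM and at 240 and 5.35, and PTTG1 at 480 and 42.9 and at 615 and 35.7. For these 4 genes cluster 4 was no higher than the highest Tconv cluster on either day. When cluster 3 alone was set against Tconv, 77 of 1950 genes were at least 2-fold higher (3.95%) and 14 lower (0.718%) on both days. With cluster 4 alone, 4 of 1601 were higher (0.25%), namely FOXP3, IL2RA, RGS1 and RTKN2, and 12 lower (0.75%).

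Of the 19 higher genes, 5 were higher in both endoTreg clusters than in every Tconv cluster of at least 50 cells on both days. These were FOXP3, IL2RA, CD9, CD79B and TNFRSF1B. Apart from IL2RA the gaps were narrow on day 20. The lowest endoTreg and highest Tconv cluster then stood at 59.7 and 56.2 CPM for FOXP3 and at 82.02 and 74.88 for CD9. For CD79B they stood at 17.8 and 15.95 CPM, and for TNFRSF1B at 76.7 and 68.2. The called genes were chosen for a wide class ratio, and the share of all measured genes without overlap was not computed. IL7R was the 1 of the 7 lower genes whose clusters did not overlap. IL7R ran from 142 to 261 CPM in the endoTreg clusters and from 309 to 1003 in the Tconv clusters, with its high end in cluster 9. None of the 26 genes was 2-fold apart in every pair of clusters on both days. IL2RA ran from 289 to 703 CPM in the endoTreg clusters and from 71.5 to 239 in the Tconv clusters, where cluster 10 on day 3 was the highest.

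ISG15 showed the opposite layout, with the class difference carried by 1 Tconv cluster. Cluster 10 (158 and 103 cells) had 2083 and 2182 CPM and held 81.5% and 81.1% of the Tconv ISG15 UMIs. The other Tconv clusters lay between 21.1 and 61.6 CPM, under the 145 and 117 CPM of endoTreg cluster 3. Without cluster 10 the log2 ratio of ISG15 turned from -1.12 and -1.34 to 0.95 and 0.72. TIMP1 was highest in Tconv clusters 8 and 9, at 201 to 299 CPM, against 17.6 to 67.0 in the others, and APOD in cluster 7, at 140 and 117 CPM.

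**Figure D4:**
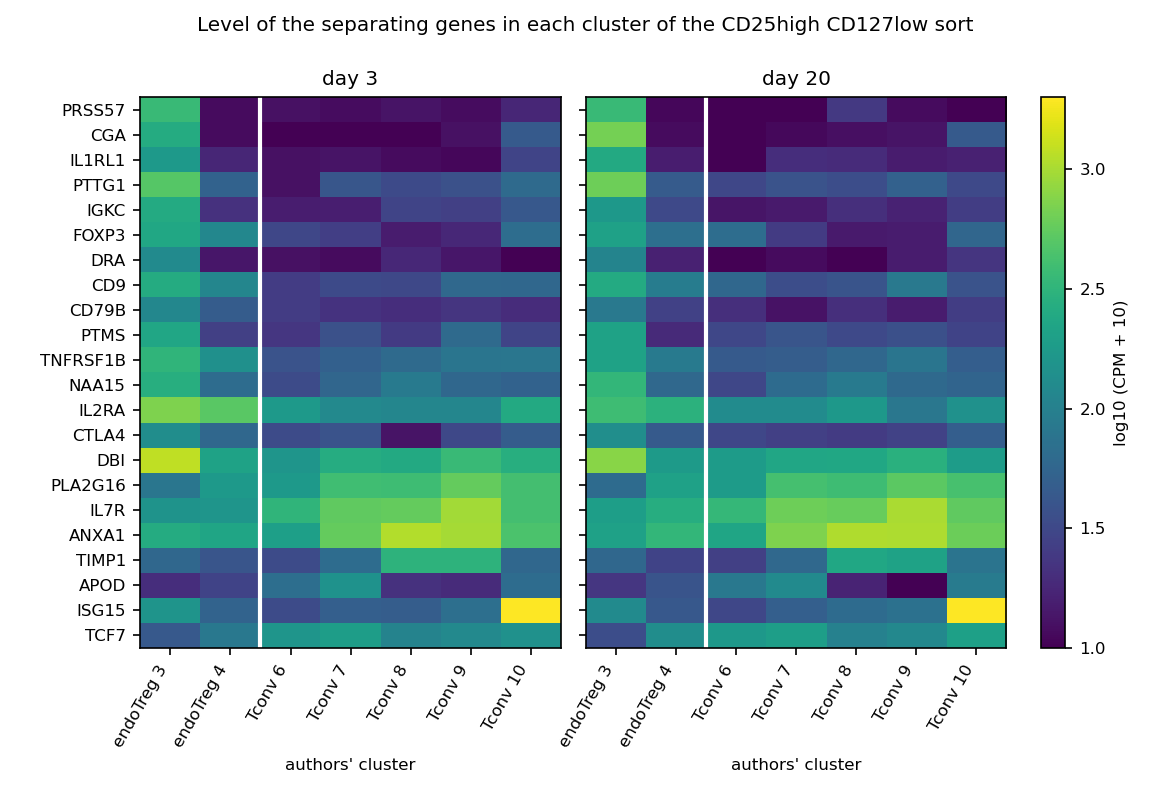
Level of the 22 named genes, as log10 of CPM plus 10 (colour), in the 2 endoTreg clusters and the 5 Tconv clusters of at least 50 cells, on day 3 and day 20; the white line divides the classes. PRSS57, CGA, IL1RL1 and PTTG1 are high in endoTreg cluster 3 only among the clusters drawn, FOXP3 and IL2RA are high in both endoTreg clusters, and ISG15 peaks in Tconv cluster 10.

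Lists of functional genes were counted at a lower floor of 20 CPM, where 1.49% of 3692 genes were at least 2-fold higher and 0.542% lower on day 3, 1.23% of 3916 higher and 0.613% lower on day 20, and the median log2 ratios were 0.13 and 0.11. Of the 28 genes of the Treg core list, 13 and 14 were measured, of which 5 and 6 were at least 2-fold higher in endoTreg and 0 lower, with medians of 0.86 and 0.91. Besides the genes above, BATF, a factor of effector Tregs, had ratios of 0.83 and 1.17, and RTKN2 0.86 and 0.85, while ICOS, a costimulatory receptor, had -0.17 and 0.46. Of the TNF receptor superfamily, 5 and 6 were measured and 2 and 1 were 2-fold higher, with medians of 0.50 and 0.64, and with cluster 4 alone these medians were -0.18 and -0.16. Of the 21 genes of the effector Treg and MHC class II list, 2 were measured, DRA and HLA-DPA1, and both were 2-fold higher on both days. DRA, at 3.31 and 5.02 CPM in Tconv, passed the 20 CPM floor through endoTreg alone, so this count adds no support. B cells also express DRA and HLA-DPA1, and the B cell markers summed to 271 and 233 CPM in endoTreg against 42.1 and 31.2 in Tconv. Without doublet-like cells the log2 ratios of DRA were 1.68 and 1.42, still past 2-fold. It was then not called because its level was under 50 CPM on at least 1 day. The part of B cell RNA in these 2 genes was not tested.

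The naive, helper and interferon lists had medians below 0 with all cells of both classes and the 20 CPM floor, but not in every alternative. Of the naive and quiescent list, 12 and 11 genes were measured, 2 were 2-fold lower on each day (IL7R and TCF7) and 0 higher, and the medians were -0.16 and -0.38, although with cluster 4 alone the day 20 median was 0.30. Of the helper cytokines and ligands, 5 and 4 were measured and 2 and 1 were 2-fold lower, with medians of -0.70 and -0.88, and without the expression floor the medians were 0.00 and -0.03. CD40LG stood at 15.9 CPM in endoTreg and 49.1 in Tconv on day 3 and at 19.1 and 73.5 on day 20 (-1.19 and -1.52), and TNFSF8, another ligand of the TNF family, had ratios of -0.70 and -0.87. Of the interferon list, 14 and 16 were measured, 1 and 0 were 2-fold higher and 2 and 4 lower, with medians of -0.28 and -0.26. Without Tconv cluster 10 these medians were 0.38 and 0.49.

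Lists of the effector program split within themselves. Of the effector memory list, 18 and 19 were measured, 2 and 1 were 2-fold higher and 2 lower on each day. LGALS3, a galectin, had ratios of 1.13 and 1.18 and RGS1, a regulator of G protein signalling, 1.92 and 0.98, while ANXA1 and KLRB1, a lectin-like receptor of memory T cells, had -1.36 or lower on both days. No measured gene of the T cell receptor signalling (13 and 14 measured), homing (9 and 9) or lineage factor list (5 and 7) was 2-fold apart on either day. The same held for the p53 target (5 and 5), glycolysis (9 and 9), actin (15 and 15) and heat shock lists (7 and 6). Over all genes at most 1.49% were 2-fold apart in either direction, so 0 in lists this small does not set them apart. The 15 actin cytoskeleton genes had medians of 0.40 and 0.38, with ACTB at 8575 and 5038 CPM on day 3 and at 7627 and 4462 on day 20, and with cluster 4 alone these medians were -0.10 and -0.29. Of 4 proliferation genes measured, 1 on day 3 and 0 on day 20 were 2-fold higher, and STMN1, which encodes stathmin, had ratios of 1.06 and 0.28. Of the cytotoxic list, 6 genes were measured on each day, and GZMA, a granzyme, and CST7, a cystatin, were 2-fold higher on day 20. The other 4 were below 0 on that day, and the list's medians were 0.00 and -0.45, or -2.29 and -2.62 with cluster 4 alone.

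The IL-2 and STAT5 response list held the gene that went opposite ways on the 2 days. CISH, a feedback inhibitor that STAT5 induces, stood at 301 CPM (285 to 318) in endoTreg and 141 (132 to 151) in Tconv on day 3, and at 37.9 (30.9 to 46) and 88.3 (79.1 to 98.3) on day 20. Its level was thus lower on day 20 in both classes, and the order of the classes was turned. It was the 1 gene of the 1756 measured that was past 2-fold in opposite directions on the 2 days. Of the list's 12 and 11 measured members, 3 and 2 were 2-fold higher and 0 and 1 lower, and CCND2, which encodes cyclin D2, had ratios of 1.37 and 0.76.

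The Tconv cells of the Treg gate were set beside the Tconv cells of the other sorts. The labels do not say whether the sort entered the authors' classes, and the cells of the CD127-positive sorts carry no finer name. Against the Tconv class of the CD127-positive CD25-positive sort (2675 and 4450 cells), 0 of 1651 measured genes were at least 2-fold higher (0%) and 0 lower (0%) on both days, and the median log2 ratios were 0.05 and -0.09. Both sides carry the same class name, which RNA counts may have entered, so likeness between them may be built in. No test was run here, and with 1 library per sort and day a difference between sorts cannot be told apart from one between libraries. Among the measured genes IL2RA came close, at 122 against 60.1 CPM on day 3 and 121 against 69.6 on day 20 (0.92 and 0.72). FOXP3 had the larger ratios, at 17.5 against 2.49 CPM and at 16.9 against 6.13 (1.14 and 0.74). It lay under the 50 CPM floor in both classes, so it was not among the 1651 genes. IL7R stood at 585 against 887 and at 638 against 1057. The Tconv cells of the Treg gate therefore had more IL2RA and FOXP3 RNA and less IL7R RNA than their counterparts, in the direction of the gate, on both days. In both sorts cluster 7 held the largest share of the class.

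Against the Tconv class of the CD127-positive CD25-negative sort (2960 and 3620 cells), 5 of 1699 genes were at least 2-fold higher (0.294%) and 11 lower (0.647%) on both days. The higher genes were IL2RA, LMNA, S100A6, ISG15 and DPEP2. IL2RA stood at 122 against 5.19 CPM on day 3 and 121 against 5.26 on day 20, and LMNA, which encodes lamin A and C, at 104 against 18.7 and at 127 against 19.5. The lower genes included GZMB, at 25.8 against 686 CPM and 59.2 against 717, NKG7, at 10.4 against 182 and 14.3 against 159, and ID2, at 141 against 692 and 73.2 against 522. GZMB and NKG7 are genes of cytotoxic granules, and ID2 encodes an inhibitor of helix-loop-helix factors. The class was made up differently in that sort: cluster 6 held 39.5% and 35.6% and cluster 5 held 18.5% and 16.9% of its cells, against 6.19% and 7.30% and 0.344% and 1.11% in the Treg gate. With cluster 7 alone in both sorts, IL2RA was the 1 gene of 1713 that was higher (0.0584%) and ID2 the 1 that was lower (0.0584%). Cells of the same cluster may be alike by the way the clusters were made.

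The endoTreg class was not the same in every sort. In the CD127-positive CD25-positive sort (272 and 293 cells) FOXP3 was at 151 and 170 CPM and IL2RA at 430 and 319, against 597 and 338 in the Treg gate, and IL7R was at 251 and 322, against 145 and 216. In the CD127-positive CD25-negative sort the class name went against FOXP3 and IL2RA. Of 73 and 50 cells so named, 1 and 0 had a FOXP3 UMI and 1 and 0 an IL2RA UMI. A count of 0 on day 20 allows up to 21.1 CPM (3 counts of 142489 UMIs; the exact interval drawn in the plot of the sorts ends at 25.9), against 140 CPM for FOXP3 in the Treg gate. PRSS57 and CGA were at 0 counts in those cells on both days, IL1RL1 was at 0 and 7.02 CPM, and IL7R was at 569 and 351 CPM. Some other genes of the class lay above the Tconv class of that sort. PTTG1 stood at 132 against 30.7 CPM on day 3 and at 126 against 35.0 on day 20. DRA stood at 569 against 8.19 and at 2758 against 12.7. CTLA4 stood at 42.4 against 10.4 and at 21.1 against 9.40, with only 9 and 3 counts in the endoTreg cells.

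**Figure D5:**
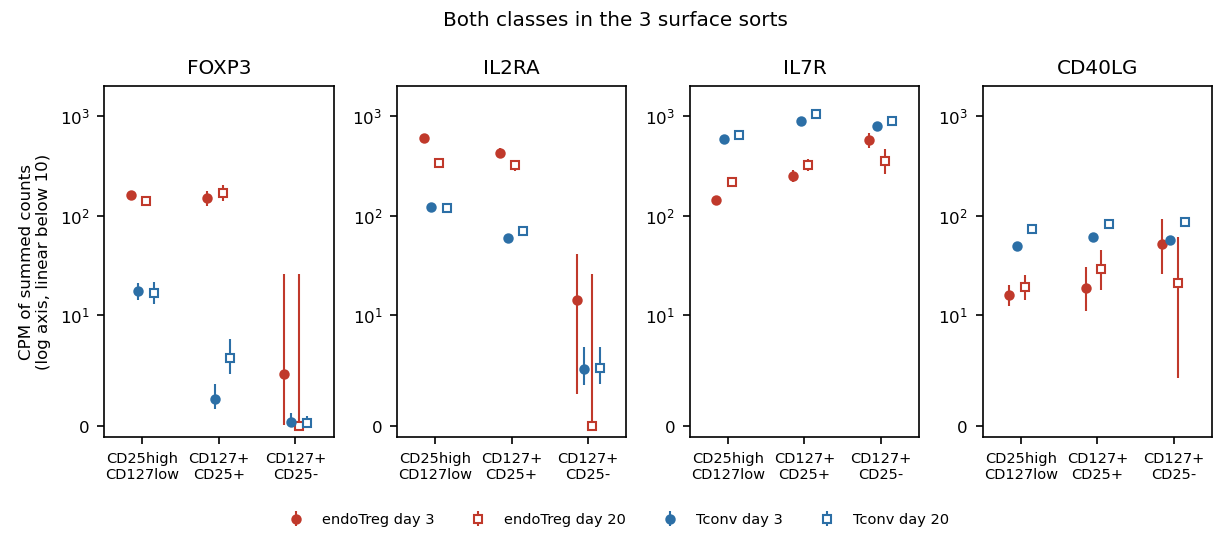
CPM of FOXP3, IL2RA, IL7R and CD40LG (log axis, linear below 10) in endoTreg (red) and Tconv (blue) cells of the 3 surface sorts, with filled circles for day 3, open squares for day 20 and bars for 95% exact Poisson intervals. FOXP3 and IL2RA in Tconv step down from the CD25high CD127low to the CD127-positive CD25-negative sort, and the endoTreg cells of the last sort have almost none of either.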

How the data were processed

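The labels' protocols give 10x 3' version 2 chemistry, and the submitters' processing notes list Cell Ranger 2.1.1. The genome build was not given in the sources used here, so no coordinates are printed. The authors deposited UMI counts (whole numbers, not scaled) for 16429 genes in each cell, with cluster, class and finer name for each cell, by a method that the labels do not state. The deposited size factor, a ratio per cell, was not used. Counts were summed per class and library and divided by the class total to give CPM. Ratios are log2 ratios after adding 10 CPM (pseudocount), so changes of low genes are understated. A call needed at least a 2-fold ratio the same way on both days and at least 50 CPM in 1 class on each day. Named genes are the 15 per direction with the largest smaller ratio, without unnamed, mitochondrial and ribosomal genes, with IL2RA, IL7R, FOXP3, CTLA4 and CD4 in any case and list members furthest from 0 as examples. Members, lists and rules were chosen with earlier results of these data known. All cells were kept and no doublet caller was run. Doublet-like cells (3 or more UMIs of B cell, red cell, platelet or monocyte markers, or more than 2 times their library's median depth) were left out in an alternative. Of 3130 identifiers without a symbol, 309 were named from a reference table. Intervals are exact Poisson and Clopper-Pearson intervals at 95%. TMM factors (edgeR 4.0.16) and median-of-ratios factors (DESeq2 1.42.0) served for alternative scalings only. HIST2H2AA4, DRA and IGKC belong to families with near-identical copies, so their counts are uncertain. For 1 gene of the lists, values are not reported here.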

Additional observations from a re-analysis of the deposited data

Results flagged for a closer look

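CISH drew attention because its class ratio pointed opposite ways on the 2 days. The log2 ratio of endoTreg over Tconv was 1.04 on day 3 and -1.04 on day 20, past 2-fold each way. With 1 library per day the difference between the days was not tested. In endoTreg, clusters 3 and 4 held 52.0% and 48.0% of the CISH counts on day 3 and 64.4% and 35.6% on day 20, so neither day rested on 1 cluster alone.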

How the results depend on the processing

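The count of 19 genes higher in endoTreg was 34 without the expression filter, 12 without doublet-like cells, and 35 and 30 on day 3 and day 20 alone, and 16 to 24 under the other planned settings. The count of 7 lower genes was 11 with TMM and with median-of-ratios factors, 4 with a pseudocount of 30 CPM, 14 without the filter, and 12 and 17 on day 3 and day 20 alone. In settings chosen after seeing the data, endoTreg cluster 3 alone gave 77 higher and 14 lower genes, and cluster 4 alone gave 4 and 12. Cluster 4 alone turned the log2 ratios of PRSS57 to -0.17 and -0.33, of CGA to -0.19 and -0.30, of PTMS to -0.52 and -0.99 and of DBI to -0.37 and -0.39 on days 3 and 20, and on day 20 those of IL1RL1 to -0.22 and of NAA15 to -0.11. Tconv without cluster 10 turned ISG15 to 0.95 and 0.72. The Tconv share was 63.1% and 59.9% without doublet-like cells and, on day 3, 58.8% of UMIs. The 16 genes that separated the Tconv classes of the Treg gate and the CD25-negative sort were 2 with cluster 7 alone. The cause of these shifts was not tested. Each ratio compares the classes within the same library, but with 1 library per day no paired test was possible. The planned promoter description was not run. With 1 library per day, nothing here measures variation between animals. Levels near 3 counts, such as FOXP3 in the CD25-negative sort, are limited by depth.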

Other observations

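A small set of cells in the Treg gate carried a transferred-cell name within the endoTreg class. The authors' finer names called 13 endoTreg cells of day 3 and 64 of day 20 naive transferred Tregs. On day 20 these 64 cells had FOXP3 at 156 CPM (97.9 to 237) and PRSS57 at 28.4 CPM (7.74 to 72.7, from 4 counts), beside 203 and 397 CPM in the 444 effector and 64.7 and 0.874 CPM in the 412 naive endogenous Tregs.

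The Tconv clusters of the Treg gate differed in homing and memory genes. CCR6, a chemokine receptor of Th17-type and memory cells, stood at 89.2 and 108 CPM in cluster 9 and at most at 12.8 CPM in clusters 6, 7, 8 and 10. S100A4 stood at 5429 and 4391 CPM in cluster 9 and 3838 and 3131 in cluster 8, against 66.7 to 791 in the others. TNFRSF18, a receptor also found on Tregs, stood at 154 and 142 CPM in Tconv cluster 8, between the 225 and 207 CPM of endoTreg cluster 3 and the 32.1 and 25 CPM of endoTreg cluster 4. Whether these genes entered the clustering is not stated in the labels, so the values describe the clusters and test nothing.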
